A study of Homo sapiens with 4 samples.

Results

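The 33 genes described here run the conversion of glucose to lactate, or belong to the transcriptional response to low oxygen. They were chosen by gene symbol through the GENCODE map from transcripts to genes, out of 34500 genes with a matched transcript, and all 33 were among the 14774 genes abundant enough to test. By role they are 2 glucose transporters, 15 glycolytic enzymes, 2 lactate dehydrogenases, 4 pyruvate dehydrogenase kinases, 2 monocarboxylate transporters and 8 other genes of the hypoxia response. The choice used no measured value of these libraries, but it was made with earlier results of the same data known.

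RNA was sequenced from MCF10A cells, human breast epithelium that was immortalised and does not form tumours. The tested cells had been given TGF-β1, a cytokine that signals through SMAD transcription factors, at 5 ng/ml for 1.5 h, and the control cells were taken at 0 h. There were 2 libraries per group, numbered 1 and 2. All 4 came from cells that stably expressed a scramble (non-targeting) shRNA and were grown in medium with EGF, insulin, hydrocortisone, cholera toxin and horse serum, so insulin and EGF were present in both groups. The extraction notes of the labels also speak of PHF8 overexpression, which no title or treatment label of these libraries records. The labels name the pairs duplicates and do not say whether a number marks a shared day, passage or culture, so p-values measure the spread between these libraries alone. The labels state no oxygen tension other than growth in a CO2 incubator.

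Glycolysis splits glucose into pyruvate in the cytosol. Lactate dehydrogenase turns pyruvate into lactate, which monocarboxylate transporters carry out of the cell. Pyruvate dehydrogenase kinases switch off the enzyme complex that sends pyruvate into the mitochondrial citric acid cycle, so they favour lactate over respiration. When oxygen is scarce, hypoxia-inducible factors (HIFs) escape hydroxylation and destruction, bind short DNA elements with the core ACGTG or GCGTG and raise many of these genes. Epithelial lines in culture commonly express glycolytic enzymes at high levels without hypoxia.

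Before the results, the libraries themselves need a description. The totals of estimated counts were 40461473 and 35737659 in TGF-β1 libraries 1 and 2, against 40792300 and 36693330 in control libraries 1 and 2. SMAD7 and SKIL, direct TGF-β targets that feed back on the pathway, had log2 fold changes of 3.76 ± 0.18 and 1.88 ± 0.17 (SE, n = 2 per group) after TGF-β1. Both passed DESeq2 (adjusted p = 6.3e-47 and 4.9e-12), and edgeR gave adjusted p = 0.0888 and 0.217. Replicate number separated the libraries, with 37.4% of all tested genes called between numbers 2 and 1. Basal epithelial markers were abundant in all 4 libraries, with KRT5 at 3515 to 4102 CPM (counts scaled to library size with TMM factors). Markers of luminal, fibroblast, and blood or endothelial cells summed to at most 31.0 CPM per list in any library, and CD3E, a T-cell marker, had 0 counts in all 4.

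The promoters of 4 genes are shown as examples. The RNA of CA9, LDHA and PDK4 differed clearly between the libraries, and the element is repeated in the PGK1 window. CA9, LDHA and PGK1 were lower in the libraries numbered 2 than in those numbered 1, and PDK4 was higher. Each window runs from 250 bases before a RefSeq transcription start to 50 bases after it, on GRCh38.p14. Sequences are given 5′ to 3′ on the gene's own strand, with every match to ACGTG or GCGTG, read on either strand, in capitals. CA9 is at chr9:35673678-35673977 (plus strand), LDHA at chr11:18396101-18396400 (plus), PGK1 at chrX:78103998-78104297 (plus) and PDK4 at chr7:95596467-95596766 (minus).
CA9: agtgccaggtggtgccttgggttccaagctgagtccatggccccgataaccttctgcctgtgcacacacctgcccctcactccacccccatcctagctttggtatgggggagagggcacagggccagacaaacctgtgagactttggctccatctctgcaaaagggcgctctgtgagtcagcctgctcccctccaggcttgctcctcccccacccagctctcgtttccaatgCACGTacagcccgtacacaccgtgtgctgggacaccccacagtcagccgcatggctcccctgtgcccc
LDHA: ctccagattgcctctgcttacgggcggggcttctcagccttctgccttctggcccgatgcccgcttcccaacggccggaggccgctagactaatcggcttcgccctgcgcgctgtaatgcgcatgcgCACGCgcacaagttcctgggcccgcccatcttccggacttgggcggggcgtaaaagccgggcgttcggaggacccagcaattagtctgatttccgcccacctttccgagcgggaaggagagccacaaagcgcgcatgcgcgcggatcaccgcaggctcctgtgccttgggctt
PGK1: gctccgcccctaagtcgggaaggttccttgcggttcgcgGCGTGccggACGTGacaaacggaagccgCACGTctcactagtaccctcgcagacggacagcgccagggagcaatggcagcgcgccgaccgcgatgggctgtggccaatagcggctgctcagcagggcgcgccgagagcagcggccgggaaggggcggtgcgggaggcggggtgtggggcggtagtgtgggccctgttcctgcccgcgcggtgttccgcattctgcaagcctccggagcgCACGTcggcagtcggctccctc
PDK4: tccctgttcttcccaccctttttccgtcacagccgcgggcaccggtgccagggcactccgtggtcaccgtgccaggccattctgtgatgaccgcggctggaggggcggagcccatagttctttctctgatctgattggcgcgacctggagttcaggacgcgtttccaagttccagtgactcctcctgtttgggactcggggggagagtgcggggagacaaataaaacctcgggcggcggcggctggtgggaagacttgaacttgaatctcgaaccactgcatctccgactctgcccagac

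The CA9 and LDHA windows held 1 match each, the PGK1 window held 4, and the PDK4 window held 0. These 4 do not stand for the list. With 1 window per gene, other genes called lower at number 2 held 0 (PFKP, TPI1, PGAM1 and P4HA2), 1 (PKM) or 2 (PDK1 and SLC16A3). Those called higher held 0 (PFKM and PDK2) or 2 (GAPDH, from 1 palindrome CACGTG counted on both strands). Some windows lay far from the start of the gene's most abundant coding transcript. The distance was 8629 bases for PDK2, 1658 for PGAM1, 1341 for GAPDH and 728 for P4HA2, so their counts may not describe the start in use. BNIP3 and ALDOC, which edgeR did not call, held 6 and 5. RefSeq windows were matched by symbol for 29 of the 33 genes, and 4 (SLC2A3, SLC16A1, BNIP3L and NDRG1) had none in the table used. With all annotated starts counted, 35 of 56 windows of these genes (62.5%) held ACGTG or GCGTG on either strand, against 17012 of 35116 windows of all genes (48.4%). Split by element, ACGTG was found in 41.1% of the windows against 21.4% of all windows, and GCGTG in 37.5% against 36.5%. The palindrome CACGTG, which contains ACGTG on both strands, was found in 14.3% against 7.26%. Windows of 1 gene can overlap, and a match is a stretch of letters, not a measured binding site.

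Levels between genes are compared in TPM (relative abundance scaled for transcript length). The 9 most abundant of the 33 genes were all glycolytic enzymes or lactate dehydrogenases. The transporter SLC16A3 ranked 10 at 441 ± 81.0 TPM, above the other enzymes. GAPDH, which oxidises glyceraldehyde 3-phosphate, averaged 6847 ± 531 TPM over the 4 libraries (SD). ENO1, the main enolase, followed at 2841 ± 273 TPM, then ALDOA, the main aldolase, at 1444 ± 45.0 TPM. PKM (pyruvate kinase), LDHB and LDHA averaged 1191 ± 151, 1155 ± 18.9 and 1058 ± 226 TPM, and neighbours in that order did not differ beyond their spread. TPI1 (triosephosphate isomerase), PGK1 (phosphoglycerate kinase) and PGAM1 (phosphoglycerate mutase) came next at 983 ± 125, 833 ± 148 and 556 ± 54.4 TPM. The coding transcript of PGK1 alone was at 163 to 189 TPM, and transcripts annotated as retained introns held 27.1% of ALDOA TPM. The places of both genes in this order therefore depend on which transcripts are counted. Together the 15 enzymes made up 1.61% and 1.54% of all TPM in TGF-β1 libraries 1 and 2, against 1.57% and 1.54% in the controls. As a description of where these RNAs stand in the cell, the median gene of the 33 had a mean of 143 CPM and the median tested gene 21.3 CPM.

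**Figure D1:**
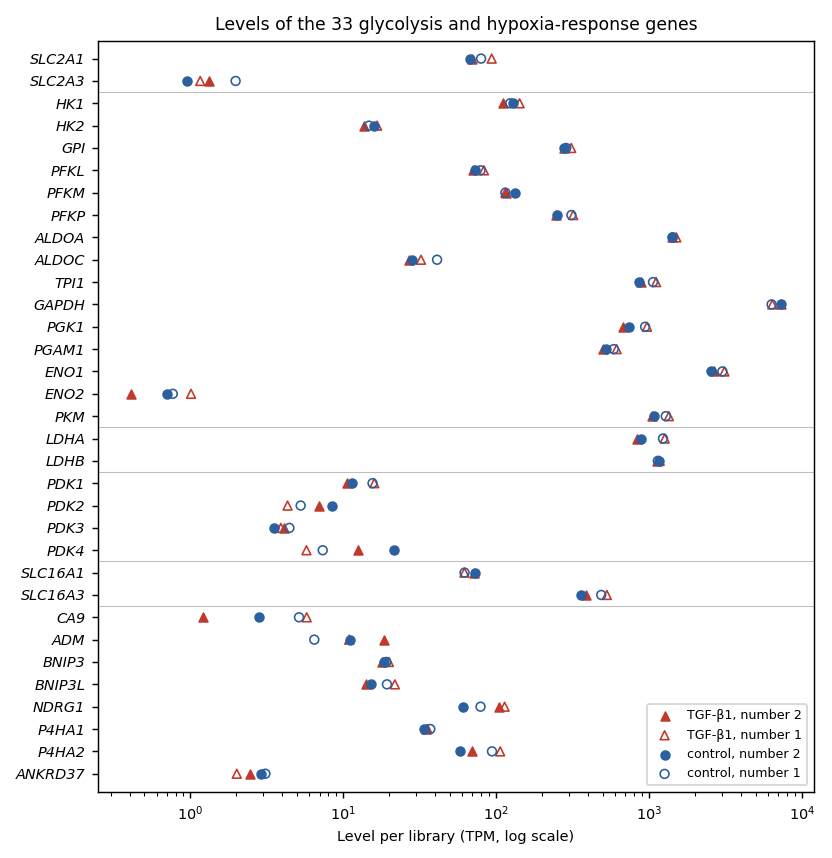
Level of each of the 33 genes in TPM on a log scale, 1 row per gene, with horizontal lines between roles. Triangles are TGF-β1 libraries and circles controls, filled for number 2 and open for number 1. GAPDH, with a mean of 6847 TPM, is at the right end and ENO2, with 0.720 TPM, at the left end, and CA9, PDK4 and LDHA split by fill rather than by colour.

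A single gene dominated the hexokinases, aldolases, enolases and glucose transporters, whereas other families were mixed. HK1 held 89.5% and 89.1% of hexokinase TPM (HK1 plus HK2) in the TGF-β1 libraries, against 89.4% and 88.9% in the controls. ALDOA held at least 97.2% of ALDOA plus ALDOC in every library, and SLC2A1 (GLUT1) at least 97.6% of SLC2A1 plus SLC2A3. ENO2, the enolase of neurons, averaged 0.720 TPM and SLC2A3 (GLUT3) 1.35 TPM, the lowest of the 33 genes. Phosphofructokinase, which commits sugar to glycolysis, was more mixed. PFKP, its platelet-type subunit, held 61.7% and 56.8% of phosphofructokinase TPM in TGF-β1 libraries 1 and 2, against 61.6% and 54.9% in control libraries 1 and 2. The muscle-type subunit PFKM held 22.2% and 27.0% against 22.8% and 29.1%, and the liver-type PFKL 15.7% to 16.2% in all 4 libraries. SLC16A3 (MCT4), the transporter of lactate-exporting cells, held 83.1% to 89.5% of the TPM of both monocarboxylate transporters.

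PKM makes its 2 enzyme forms by including either of 2 exons of equal length that exclude each other, and the PKM2 form is the usual one of proliferating cells. Both exons are on chromosome 15 (GRCh38, minus strand, coding exons of GENCODE release 29), PKM1's at chr15:72203022-72203188 and PKM2's at chr15:72202454-72202620. They are printed because they are what tells the 2 forms apart. Each has 167 bases, and the 62 positions at which they differ are in capitals, which leaves 62.9% of bases identical.
PKM1 exon: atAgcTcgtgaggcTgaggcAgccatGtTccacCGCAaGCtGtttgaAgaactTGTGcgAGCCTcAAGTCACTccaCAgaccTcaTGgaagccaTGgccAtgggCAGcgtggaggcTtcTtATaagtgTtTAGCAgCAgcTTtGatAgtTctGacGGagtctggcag
PKM2 exon: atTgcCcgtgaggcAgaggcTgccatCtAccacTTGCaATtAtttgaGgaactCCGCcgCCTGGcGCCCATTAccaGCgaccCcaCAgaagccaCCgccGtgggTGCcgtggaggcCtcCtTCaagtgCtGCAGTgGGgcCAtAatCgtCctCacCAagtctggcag

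Transcripts that carry the PKM2 exon alone held 98.0% and 96.8% of the PKM TPM that could be assigned to either exon in TGF-β1 libraries 1 and 2, against 98.1% and 96.4% in control libraries 1 and 2. The PKM2 form was thus at 986 to 1290 TPM and the PKM1 form at 23.9 to 37.7 TPM. The share was lower in both libraries numbered 2 than in both numbered 1, by less than 2 percentage points. There were 5 PKM2 transcripts, 7 PKM1 transcripts and 1 with both exons in the annotation, and their estimates rest on short reads divided among transcripts.

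For some genes much of the signal was assigned to transcripts that encode no complete protein. SLC2A1 had a coding share of 9.93% of its TPM on average, and a transcript annotated as a target of nonsense-mediated decay held 70.1%. PGK1 had a coding share of 21.3% of its TPM but 70.7% of its estimated counts, since 3 short processed transcripts held the remaining TPM. PDK2 had 51.4%, CA9 62.5%, ANKRD37 40.1% and SLC2A3 46.2%. Of the main enzymes, TPI1, PGAM1, ENO1 and LDHB each had over 99% of their TPM in coding transcripts (99.3%, 99.4%, 99.4% and 99.6%). Which of these transcripts carry real molecules, and which take reads shared with the coding form, was not tested.

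**Figure D2:**
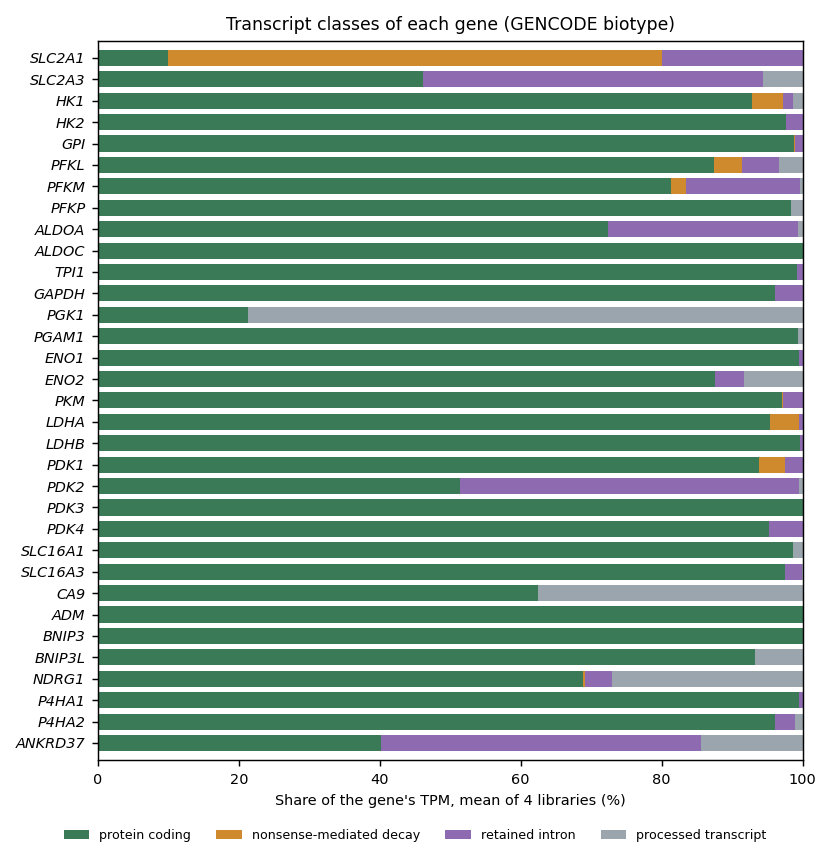
Share of each gene's TPM by GENCODE transcript class, mean of 4 libraries, 1 stacked bar per gene from 0 to 100%. Protein-coding transcripts fill most bars, while SLC2A1 (9.93% coding) and PGK1 (21.3% coding) stand out by their other classes.

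The comparison of TGF-β1 with control asks which RNAs differ between 1.5 h with TGF-β1 and 0 h. These libraries include no untreated cells at 1.5 h, so TGF-β1 cannot be told apart from elapsed time and handling. None of the 33 genes passed this comparison in the fits without covariates. With edgeR's quasi-likelihood test and Benjamini-Hochberg adjustment, 0 of the 33 were called, and 0 of all 14774 tested genes (0%). At an unadjusted p under 0.05 edgeR listed 1 of the 33 and 255 of all genes. DESeq2 called 0 of the 33, beside 90 of the 19649 genes to which it gave an adjusted p (0.458%, with 0.422% higher and 0.0356% lower). With the replicate number as a block edgeR called 4 of the 33 (NDRG1, ADM and SLC2A1 higher, PDK4 lower), beside 335 of all 14774 tested genes. The median log2 fold change of the 33 genes was 0.04, against -0.01 over all tested genes. Both TGF-β1 libraries lay above both controls for 6 of the 33 (NDRG1, ADM, SLC2A1, GPI, ALDOA and BNIP3) and below them for 1 (ANKRD37), which is 21.2%, beside 16.2% of all tested genes (7.87% higher, 8.34% lower).

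The 2 genes with the largest positive values were both from the regulatory part of the list. NDRG1 (ENSG00000104419, chromosome 8, 133237171 to 133302022, GRCh38), a stress-responsive gene that hypoxia and metal chelation raise in many cells, had 182 and 167 CPM in the TGF-β1 libraries, against 118 and 105 CPM in the controls. The groups did not overlap, and the gap between them exceeded the spread within either. Its log2 fold change was 0.65 ± 0.13 (SE), with 0.63 between the libraries numbered 1 and 0.67 between those numbered 2. It was the gene that edgeR listed at an unadjusted p under 0.05. Its adjusted p over all genes was 1.00 by edgeR and 0.295 by DESeq2. ADM (ENSG00000148926, chromosome 11, 10304680 to 10307397), which encodes the vasodilator peptide adrenomedullin, had 10.7 and 18.2 CPM in the TGF-β1 libraries, against 6.87 and 9.96 CPM in the controls. The lower TGF-β1 library was just above the higher control, and the log2 fold change was 0.78 ± 0.35 (SE; adjusted p = 1.00 by edgeR). It was 0.36 without TGF-β1 library 2 and 1.11 without TGF-β1 library 1.

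SLC2A1, which brings glucose into most cells, had 137 and 119 CPM after TGF-β1, against 113 and 96.3 CPM in control libraries 1 and 2. Its groups did not overlap in CPM, by a margin smaller than the spread within each, and its log2 fold change was 0.29 ± 0.15 (SE; adjusted p = 1.00 by edgeR). In TPM the groups overlapped, with 93.6 and 69.9 TPM against 79.8 and 67.5 TPM. Its log2 fold change was 0.14 on log2(TPM + 1) and 0.42 on counts of coding transcripts alone. With 1 library left out it ran from 0.18 (without TGF-β1 library 1 or control library 2) to 0.41 (without control library 1). PDK4, the kinase induced by fasting and glucocorticoids in other tissues, had 13.9 and 32.7 CPM in TGF-β1 libraries 1 and 2, against 18.0 and 53.4 CPM in control libraries 1 and 2. Its value was lower with TGF-β1 at each number but the groups overlapped, and the log2 fold change of -0.62 ± 0.68 (SE) became 0.37 without control library 2. SLC16A3 had 734 and 561 CPM against 646 and 512 CPM, with a log2 fold change of 0.16 ± 0.22 (SE). The remaining genes among the 8 largest were ANKRD37, SLC2A3 and ALDOC, at -0.37 ± 0.36, -0.33 ± 0.34 and -0.21 ± 0.22 (SE), all 3 within 2 standard errors of 0.

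The enzymes themselves moved little. Over the 15 glycolytic enzymes the log2 fold changes ran from -0.21 (ALDOC) to 0.10 (GPI), with a median of 0.05. Of all 33 genes 26 were above 0 on counts, but 18 on log2(TPM + 1), so the small positive values depended on the scale. LDHA had 1223 and 851 CPM in TGF-β1 libraries 1 and 2, against 1200 and 869 CPM in control libraries 1 and 2, a log2 fold change of 0.00 ± 0.28 (SE). The difference between the numbers was far larger than that between the groups. GAPDH, with 4767 and 5745 CPM against 4719 and 5564 CPM, had a log2 fold change of 0.03 ± 0.23. In the fits without covariates, with 2 libraries per group and standard errors of this size, moderate changes could not be told from 0. The counts of 0 therefore do not show that the genes were steady. With the replicate number as a block, the standard errors of NDRG1, ADM, SLC2A1 and PDK4 were 0.05, 0.10, 0.05 and 0.09. A further term in a fit of 4 libraries leaves little to estimate each gene's own spread. These errors therefore lean on the spread of other genes. Their log2 fold changes were then 0.65, 0.76, 0.29 and -0.56. No label says that the numbers pair the libraries.

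**Figure D3:**
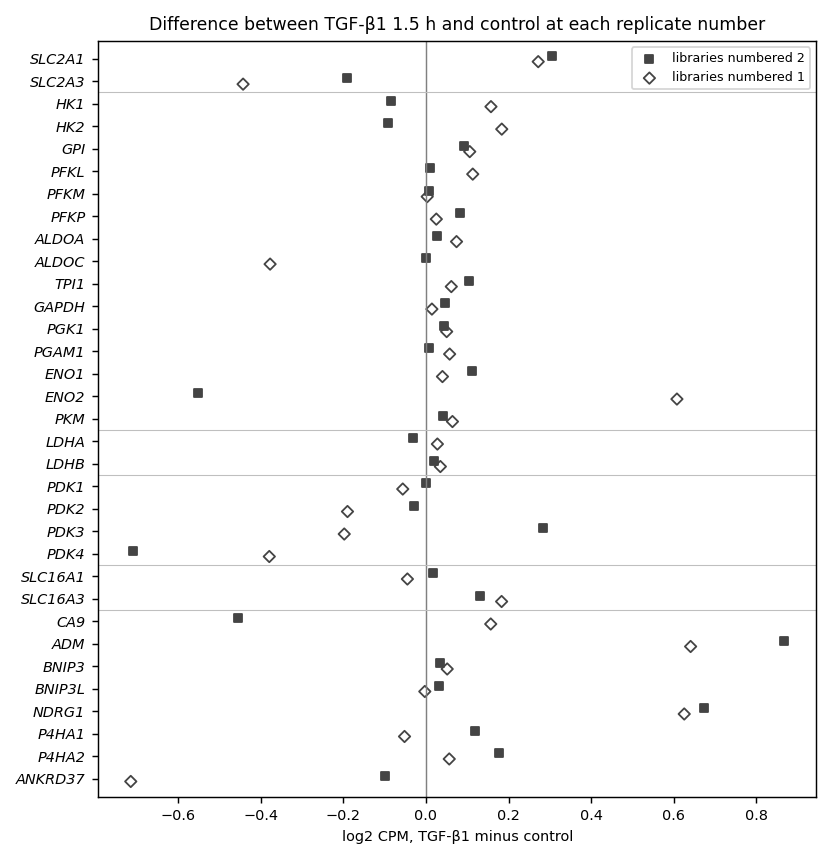
Difference in log2 CPM, TGF-β1 minus control, for each of the 33 genes, with filled squares for the libraries numbered 2 and open diamonds for those numbered 1. Both symbols of ADM and of NDRG1 lie beyond 0.6, and most enzymes lie close to 0.

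Other genes of the pathway were read from 5 further lists. Of 29 tested further hypoxia targets, DESeq2 called 3 higher and 0 lower after TGF-β1, and edgeR called 0 (4 at an unadjusted p under 0.05). Over all genes with an adjusted p, DESeq2 called 0.422% higher and 0.0356% lower. The list was chosen with earlier results of these data known, so its count is a description. DESeq2's calls in this list were VEGFA, the vascular endothelial growth factor, EFNA1, an ephrin ligand, and MAFF, a small MAF transcription factor. VEGFA had 173 and 137 CPM after TGF-β1, against 55.7 and 35.4 CPM in controls, a log2 fold change of 1.77 ± 0.28 (SE; edgeR adjusted p = 0.731). EFNA1 had 148 and 251 CPM after TGF-β1, against 48.1 and 62.6 CPM in controls, a log2 fold change of 1.85 ± 0.32 (SE; DESeq2 adjusted p = 1.3e-05, edgeR adjusted p = 0.876). MAFF had 59.2 and 62.1 CPM against 35.9 and 34.7 CPM, 0.78 ± 0.11 (SE; DESeq2 adjusted p = 0.029, edgeR adjusted p = 0.566). The fourth at an unadjusted p under 0.05 was HILPDA, a lipid droplet protein, which lay the other way with 5.29 and 5.79 CPM after TGF-β1, against 8.15 and 8.35 CPM in controls (-0.57 ± 0.19, SE; edgeR adjusted p = 1.00). VEGFA, EFNA1 and MAFF are each also known to respond to signals other than hypoxia.

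Of 11 tested side-branch enzymes of glycolysis, DESeq2 called PFKFB3 alone, beside 0.458% of all genes with an adjusted p. EdgeR called 0 of the 11 (1 at an unadjusted p under 0.05). PFKFB3 makes fructose 2,6-bisphosphate, the activator of phosphofructokinase. It had 119 and 99.3 CPM in the TGF-β1 libraries, against 36.5 and 31.6 CPM in the controls. Its log2 fold change was 1.68 ± 0.16 (SE; DESeq2 adjusted p = 1.1e-09, edgeR adjusted p = 0.217), with 1.71 between the libraries numbered 1 and 1.65 between those numbered 2. The phosphofructokinase subunits that its product activates had log2 fold changes of 0.06 (PFKL), 0.01 (PFKM) and 0.05 (PFKP). Among 10 HIF factors and regulators, 7 pentose phosphate enzymes and 10 genes for pyruvate entry into mitochondria, both tools called 0, and edgeR listed 0 at an unadjusted p under 0.05. HIF1A, the HIF-1 alpha subunit, had 497 and 437 CPM after TGF-β1 against 491 and 406 CPM in controls. EPAS1 (HIF-2 alpha) had 259 and 257 CPM against 206 and 219 CPM, a log2 fold change of 0.28 ± 0.11 (SE; edgeR adjusted p = 1.00). EGLN3, a HIF hydroxylase and itself a HIF target, was at 1.48 to 1.84 CPM in all 4 libraries.

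The libraries numbered 2 and those numbered 1 differed far more at these genes than the treatment groups did. Each number holds 1 TGF-β1 library and 1 control. EdgeR's quasi-likelihood test (Benjamini-Hochberg over all genes) called 16 of the 33, 5 higher and 11 lower in the libraries numbered 2, and DESeq2 called 18, 5 higher and 13 lower. The background was also high, since edgeR called 37.4% of all tested genes (16.4% higher, 21.0% lower) and DESeq2 34.1% (13.4% higher, 20.7% lower). Against that, 48.5% of the 33 were called, 15.2% higher and 33.3% lower. The 2 libraries of each number did not overlap with the other 2 for 21 of the 33 (63.6%), beside 72.5% of all tested genes (35.9% higher, 36.6% lower), so by that count the numbers differed at least as widely elsewhere. The median log2 fold change of the 33 was -0.14, against 0.01 over all tested genes.

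Among the enzymes, edgeR called 5 of 15 lower in the libraries numbered 2, namely PFKP, TPI1, PGK1, PGAM1 and PKM, and 2 higher, PFKM and GAPDH. That is 33.3% lower and 13.3% higher, beside 21.0% and 16.4% of all tested genes. PKM had 1761 and 1711 CPM in the TGF-β1 and control libraries numbered 2, against 2124 and 2031 CPM in those numbered 1. PFKP had 466 and 440 CPM against 559 and 549 CPM, a log2 fold change of -0.29 ± 0.05 (SE; edgeR adjusted p = 0.0094). GAPDH went the other way, with 5745 and 5564 CPM against 4767 and 4719 CPM, 0.25 ± 0.04 (SE; edgeR adjusted p = 0.0088). GAPDH's share of enzyme TPM was accordingly 47.7% and 47.4% in the libraries numbered 2, against 39.8% and 40.5% in those numbered 1. So the fitted differences of consecutive steps (TPI1, GAPDH and PGK1) lay in both directions between the same libraries. None of these calls held under every alternative run, as given below. GAPDH, often used as a constant reference, was among the genes called. ALDOC and ENO1 were called lower by DESeq2 (adjusted p = 0.040 and 0.010) but not by edgeR (0.0852 and 0.0549). With treatment as a further term edgeR called both (0.0192 and 0.0272). HK1, HK2, GPI, PFKL, ALDOA and ENO2 passed neither test, with log2 fold changes from -0.24 (ENO2) to -0.01 (HK2).

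At the branch from pyruvate to lactate the paired genes separated. LDHA (ENSG00000134333, chromosome 11, 18394388 to 18408425), the subunit typical of glycolytic tissue, had 851 and 869 CPM in the TGF-β1 and control libraries numbered 2, against 1223 and 1200 CPM in those numbered 1. Libraries of the same number nearly coincided, whatever their treatment. The log2 fold change was -0.49 ± 0.04 (SE; edgeR adjusted p = 0.0018, DESeq2 adjusted p = 2.2e-27). LDHB, the subunit typical of oxidative tissue such as heart, had 1010 and 996 CPM against 987 and 964 CPM, a log2 fold change of 0.04 ± 0.04 (SE; edgeR adjusted p = 0.476). LDHA thus made up 42.5% and 43.3% of lactate dehydrogenase TPM in the libraries numbered 2, against 51.9% and 51.9% in those numbered 1. Of the transporters, SLC16A3, which exports lactate, was lower at -0.36 ± 0.08 and SLC16A1 (MCT1), which carries lactate in either direction, was higher at 0.24 ± 0.04 (SE; edgeR adjusted p = 0.0234 and 0.0111).

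**Figure D4:**
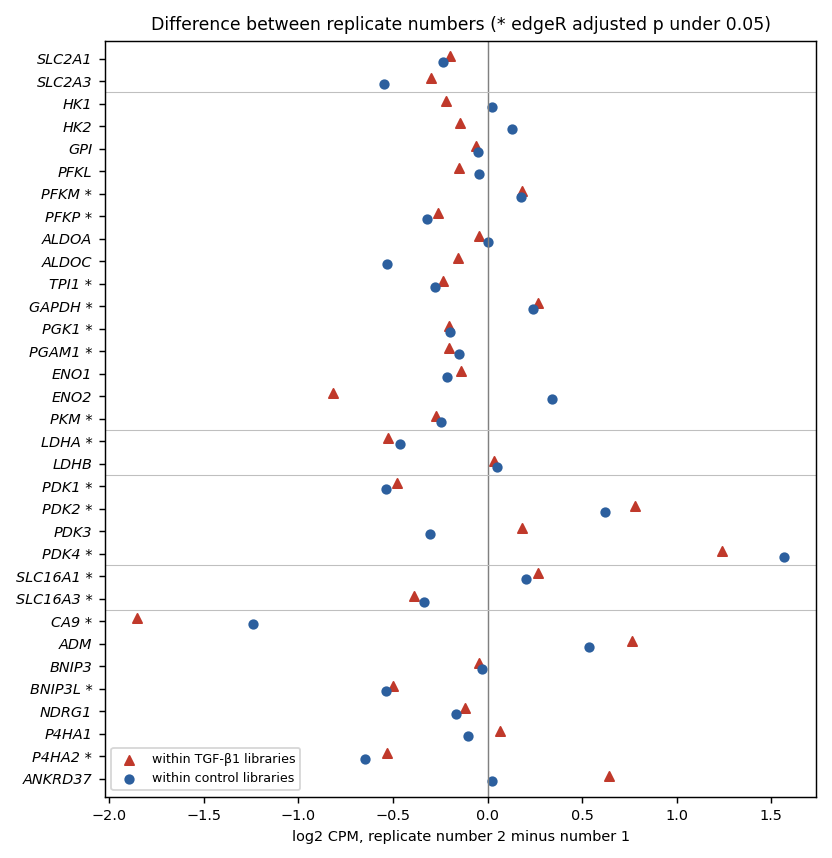
Difference in log2 CPM, number 2 minus number 1, for each of the 33 genes within the TGF-β1 libraries (triangles) and within the control libraries (circles). Asterisks mark the 16 genes with an edgeR adjusted p under 0.05, of which CA9 lies farthest to the left and PDK4 farthest to the right.

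The pyruvate dehydrogenase kinases showed opposite directions within a single family. PDK1, a family member that HIF-1 raises, had 28.5 and 28.5 CPM in the TGF-β1 and control libraries numbered 2, against 39.7 and 41.3 CPM in those numbered 1. Its log2 fold change was -0.51 ± 0.05 (SE; edgeR adjusted p = 0.0026). PDK4 (ENSG00000004799, chromosome 7, 95583499 to 95596491) had 32.7 and 53.4 CPM against 13.9 and 18.0 CPM, 1.43 ± 0.26 (SE; edgeR adjusted p = 0.0135). PDK2 was also higher, at 6.37 and 6.50 CPM against 3.71 and 4.23 CPM, and PDK3, at 4.61 to 5.69 CPM, passed neither test. PDK1 held 30.9% and 25.4% of kinase TPM in the libraries numbered 2, against 53.3% and 47.7% in those numbered 1. PDK4 held 36.6% and 48.0% against 19.2% and 22.5%, so the most abundant kinase was PDK4 at number 2 and PDK1 at number 1.

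Of the 8 other hypoxia-response genes, 3 were lower in the libraries numbered 2 and 0 higher, by either tool, a share near the 37.4% of all tested genes that edgeR called. CA9 (ENSG00000107159, chromosome 9, 35673856 to 35681159), a cell-surface carbonic anhydrase that handles acid and is among the most HIF-dependent genes known, had 1.27 and 1.75 CPM in the TGF-β1 and control libraries numbered 2, against 4.60 and 4.13 CPM in those numbered 1. These values rest on 44 and 64 counts against 180 and 164, and the log2 fold change of -1.53 ± 0.21 (SE; edgeR adjusted p = 0.0062) was the largest among the 33 genes. P4HA2, a subunit of the collagen prolyl hydroxylase, had 103 and 91.1 CPM against 149 and 143 CPM, -0.59 ± 0.07 (SE; edgeR adjusted p = 0.0041). BNIP3L, a mitophagy receptor, had 29.6 and 28.97 CPM against 41.9 and 42.0 CPM, -0.52 ± 0.05 (SE; edgeR adjusted p = 0.0023). The close relatives of the last 2, P4HA1 and BNIP3, had log2 fold changes of -0.02 ± 0.06 and -0.04 ± 0.05 (SE; edgeR adjusted p = 0.853 and 0.615). ADM, at 0.68 ± 0.35 (SE; edgeR adjusted p = 0.189), and NDRG1, at -0.14 ± 0.29, were not called. With treatment as a further term ADM was called higher (0.66 ± 0.10, SE; edgeR adjusted p = 0.0025), with a standard error that likewise leans on other genes. In the fits without covariates the ADM value ran from 0.17 without TGF-β1 library 2 to 1.04 without control library 2. For NDRG1 the fitted difference by treatment (0.65) was larger than that by number.

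**Figure D5:**
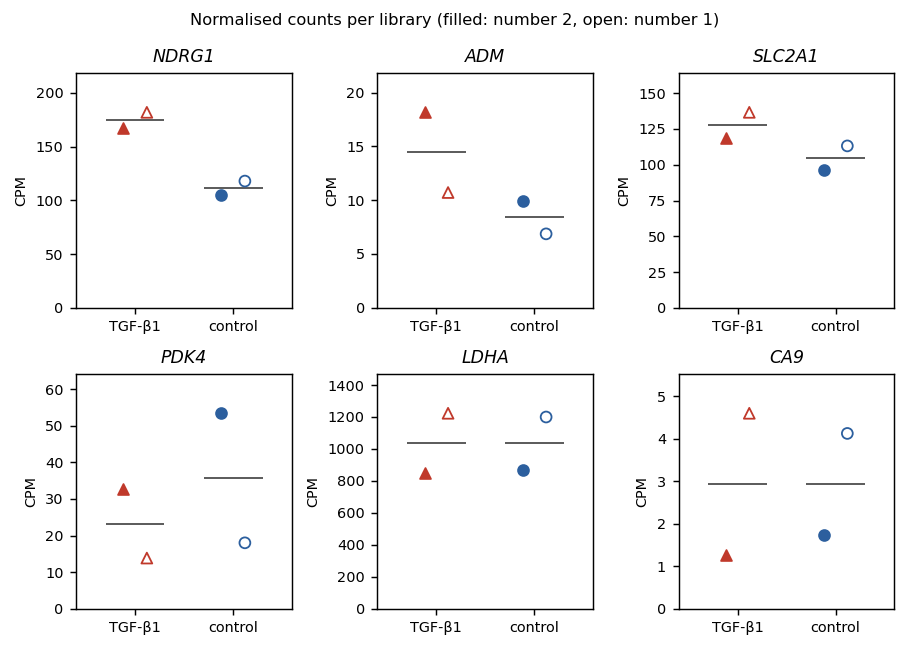
CPM per library on axes from 0 for NDRG1, ADM, SLC2A1, PDK4, LDHA and CA9, TGF-β1 left of control, filled symbols for number 2 and open ones for number 1, with a bar at each mean of 2 libraries. NDRG1 separates by treatment, at 182 and 167 CPM against 118 and 105 CPM, while LDHA and CA9 separate by number.

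Of the 16 calls, 9 held whichever library was left out, with a lone library then assumed to vary like the others. These were PFKP, PKM, LDHA, PDK1, CA9, BNIP3L and P4HA2 (lower) and GAPDH and PDK4 (higher). The other 7 lost the call without at least 1 library. PFKM did so without any of the 4 (edgeR adjusted p up to 0.103). TPI1 and SLC16A3 lost it without TGF-β1 library 1 or control library 2 (up to 0.0704 and 0.0952). PGK1, PGAM1, PDK2 and SLC16A1 lost it without TGF-β1 library 1, TGF-β1 library 2 or control library 2 (up to 0.0845, 0.0978, 0.0732 and 0.0644). The PGK1 call also ended when coding transcripts alone were summed, at -0.08 ± 0.05 (SE; edgeR adjusted p = 0.316). PFKM and PDK2 lost theirs there too (adjusted p = 0.0820 and 0.0559), and GAPDH passed on counts but not on log2(TPM + 1) with limma (adjusted p = 0.0686).

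The other pathway lists held differences between the numbers in both directions, to be read beside the 37.4% of all tested genes that edgeR called. Among 10 HIF factors and regulators, edgeR called 2 lower in the libraries numbered 2 and 0 higher. HIF1A had 437 and 406 CPM against 497 and 491 CPM, a log2 fold change of -0.23 ± 0.05 (SE; edgeR adjusted p = 0.0235), and HIF1AN, which encodes the asparagine hydroxylase that restrains HIF, was at -0.50 ± 0.06 (adjusted p = 0.0037). Of 29 further hypoxia targets, edgeR called 5 higher and 7 lower, among them MXI1, a MYC antagonist (0.85 ± 0.05), ZNF395 (0.44) and WSB1, a ubiquitin ligase adaptor (-0.60 ± 0.06). The other genes called lower were PPFIA4 (-1.19, on 13 to 42 counts), GBE1 (-0.38), GYS1 (-0.33), ERO1A (-0.31), CA12 (-0.26) and KDM4B (-0.21). The others called higher were DDIT4 (0.80), TMEM45A (0.53) and STC2 (0.44). Calls in this list thus lay in both directions. Of 11 side-branch enzymes, edgeR called 1 higher and 2 lower, including PFKFB2, a relative of PFKFB3, at -0.78 ± 0.07. Of 7 pentose phosphate enzymes, 2 were higher, PGLS and TKT (0.53 ± 0.06 and 0.37 ± 0.06), and 2 lower. Of 10 genes for pyruvate entry into mitochondria, PDPR, a regulator of the phosphatase that reactivates pyruvate dehydrogenase, was higher (0.30 ± 0.06) and PDP1, a catalytic subunit of that phosphatase, lower (-0.74 ± 0.16).

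Other measures moved with the replicate number too. The summed CPM of 10 basal epithelial markers was 12988 and 11292 in the TGF-β1 and control libraries numbered 2, against 18412 and 18187 CPM in those numbered 1, and edgeR called 5 of the 10 lower and 1, TP63, higher. Of the 3 tested luminal markers 1 was lower, and of 3 tested fibroblast and 3 tested blood or endothelial markers 0 were called (0 at an unadjusted p under 0.05). The summed CPM per library was 14.6 to 22.2 for the 6 luminal, 26.2 to 31.0 for the 7 fibroblast (mostly DCN) and 14.6 to 17.1 for the 6 blood and endothelial markers (mostly CD68). Transcripts annotated as retained introns held 3.14% and 3.39% of counts in the libraries numbered 2, against 2.82% and 2.72% in those numbered 1. Transcript length exceeded effective length by 187 bases in TGF-β1 library 2, and by 170 to 171 bases in the other 3 libraries, so this measure did not follow the number. The part of each of these in the differences above was not tested. In RNA from whole cultures, fewer cells that express a gene and less RNA of it per cell cannot be told apart.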

How the data were processed

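RNA of 4 MCF10A libraries was sequenced as 50-base paired ends after ribosomal RNA depletion, per the labels' protocols, although the molecule label says polyA RNA. Per the submitters' processing notes, the authors used kallisto and GRCh38, with no version given in the sources used here. Deposited tables hold estimated counts and TPM per transcript, per the file headers. Other deposited columns, transcript length and effective length, are in bases.

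Of 173259 transcripts, 159239 (91.91%) matched GENCODE release 29 without version, and the others (2.24% to 2.38% of counts) were left out. Gene sums of estimated counts, rounded to whole numbers, and gene sums of TPM were formed. Sharing of reads between transcripts and between near-identical genes is an estimate. EdgeR 4.0.16 (TMM, filterByExpr, glmQLFit and glmQLFTest, no covariates) in R 4.3.3 was fitted over 14774 genes for TGF-β1 against control, and for number 2 against number 1, with Benjamini-Hochberg adjustment and a threshold of 0.05. Standard errors are approximate (log2 fold change over the root of F). DESeq2 1.42.0, limma 3.58.1 on log2(TPM + 1) and log2(TPM + 0.1), RLE scaling, no filter, coding transcripts alone, a block or treatment term and each library left out were alternatives. The fits were also run on simulated counts with known changes, where only the size of the recovered changes was checked. That simulation used a capped spread and no further difference between libraries, so it does not bear on the calls made here.

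Genes named are those called in either comparison, the 8 largest log2 fold changes with a mean of at least 50 counts, the most abundant of each role, and of each other list up to 3 with the smallest p, besides HIF1A, EPAS1, EGLN3, SMAD7 and SKIL. Other members are named to account for the whole list, and the remaining hypoxia targets called between the numbers to give both directions. HILPDA and DDIT4 were named after their values were seen. Members and lists were chosen with earlier results of these data known. Promoter sequences are RefSeq's on GRCh38.p14, and exon sequences and gene positions GENCODE release 29's on GRCh38, counted from 1.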

Additional observations from a re-analysis of the deposited data

How the results depend on the processing

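For TGF-β1 against control, the count of called genes (0 in the edgeR fit) was 15 without the filter, 90 by DESeq2 and 8 to 25 with 1 library left out, and it stayed 0 with RLE scaling, coding transcripts alone and limma on TPM. With the replicate number as a block edgeR called 335 of the 14774 tested genes and 4 of the 33. These were NDRG1, ADM and SLC2A1 (higher) and PDK4 (lower), with edgeR adjusted p = 0.00079, 0.0145, 0.0292 and 0.0263. The differences of number 2 minus number 1 in the TGF-β1 and in the control libraries correlated over genes (r = 0.678), but 2 pairs do not show that the numbers pair the samples. None of the 33 was called under the other alternatives (0 to 0 with 1 library left out). With 1 library left out, log2 fold changes ranged from -1.35 to 0.37 for PDK4 (0.37 without control library 2), from -0.45 to 0.085 for ALDOC (0.085 without control library 1) and from -0.050 to 0.35 for SLC16A3 (-0.050 without TGF-β1 library 1), so the sign of each reversed.

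For number 2 against number 1, the called genes (5524) fell to 3584 with log2(TPM + 1), 3611 with log2(TPM + 0.1) and 3011 to 4041 with 1 library left out. Of the 33, 16 were called, against 9 to 15 with 1 library left out. With treatment as a further term edgeR called 6635 of the 14774 tested genes and 21 of the 33 (6 higher, 15 lower). The log2 fold changes recomputed for this comparison, those of the 16 called genes, ALDOC, ENO1 and ADM, kept their sign under all alternatives run. The cause of these shifts was not tested, beyond fewer libraries in the fits that leave 1 out. Counts are lowest for ENO2, CA9, ANKRD37 and SLC2A3 (18 to 180 per library).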

Other observations

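Near-identical copies touch a few of these genes. Adding annotated pseudogenes named after the gene would take SLC2A3 to 3.75 TPM, against 1.35 TPM for the gene alone. The 3 pseudogenes held 64.0% of the sum. SLC2A14, the close paralog of SLC2A3, was at 0.420 to 0.618 TPM, so the SLC2A3 level is uncertain. BNIP3 would rise to 21.0 TPM, against 18.9 TPM alone, with 39 pseudogenes. The 62 GAPDH pseudogenes together held 1.99 to 2.81 TPM per library, against 6847 TPM for GAPDH, and the 6 LDHA pseudogenes 5.66 to 9.69 TPM.

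DDIT4, a stress-induced inhibitor of mTORC1 that hypoxia and glucocorticoids raise, was singled out after its values were seen. It had 1181 and 974 CPM in the TGF-β1 and control libraries numbered 2, against 605 and 634 CPM in those numbered 1. The log2 fold change was 0.80 ± 0.10 (SE; edgeR adjusted p = 0.0044). Of the 29 further hypoxia targets edgeR called 5 higher (17.2%), DDIT4 among them, and 7 lower (24.1%). The shares of all tested genes were 16.4% and 21.0%.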
